A study of Mus musculus with 48 samples.

Results

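Untreated primary sarcomas of the mouse were compared with untreated allograft sarcomas across all measured genes, to ask how a tumour that arose in its own host differed from a tumour grown from transplanted cells before any therapy. The comparison rests on 12 of the 48 bulk tumour libraries of the series, chosen by their labels: 8 primary tumours and 4 allografts that received 0 Gy and an isotype control antibody. All mice are labelled as strain 129/SvJae. Primary tumours were induced in p53FL/FL mice of 6 to 10 weeks, in which both Trp53 alleles can be cut out by Cre recombinase. A virus carrying Cre (Adeno-Cre) was injected into the gastrocnemius muscle of the calf, followed by 300 µg of the carcinogen 3-methylcholanthrene (MCA) in sesame oil. Allografts were grown from 50000 cells of 1 p53/MCA sarcoma cell line, placed in Matrigel into the same muscle of syngeneic mice. Both kinds were given 200 µg of isotype antibody at about 150 mm3, were not irradiated, and were harvested 3 days later. The 4 allografts are therefore repeats of 1 tumour line in 4 hosts, and each primary tumour is a tumour of its own, so that a property of the line and a property of transplantation cannot be told apart.

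Soft tissue sarcomas are tumours of mesenchymal cells, the lineage of fibroblasts, muscle, bone and fat, and they keep part of the positional and developmental gene programme of the tissue they arise in. A primary tumour grows together with its host's immune system from the first transformed cell, whereas a transplanted line brings a fixed set of tumour cell properties into a new host. Bulk RNA mixes tumour cells with muscle, vessels, fibroblasts and leukocytes. Fewer cells of a type and less RNA of a gene per cell cannot be told apart in such data.

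Libraries held 37.7 M to 49.2 M counts in primary tumours and 39.6 M to 44.7 M in allografts. Total counts, the mitochondrial share, the share of the 10 highest genes and the number of genes detected were each compared with a 2-sided exact permutation test. The smallest p, 0.0566, was that of the mitochondrial share (0.371 to 1.62% of counts in primary tumours, 1.09 to 2.03% in allografts), and it was 0.226 after adjustment over the 4 measures. Vim, a cytoskeletal gene of mesenchymal cells, stood at 2435 to 3081 CPM (counts scaled to a common library size) in allografts and 2999 to 5826 CPM in primary tumours, and the endothelial, muscle and leukocyte genes described further on were present in both kinds. Trp53 was at 25.9, 28.7, 38.4 and 30.3 CPM in the allografts and at 19.8, 24.8 and 27.6 CPM (lowest, median, highest) in the primary tumours. Its gene-level count was not called different (log2 fold change −0.34, SE 0.14, adjusted p 0.141), and since both kinds come from p53-deleted sarcomas this is no check of the deletion. The Y-linked gene Ddx3y was at or above 10 CPM in 4 of 4 allografts and 3 of 8 primary tumours, and Xist, which marks a silenced X chromosome, in 1 of 4 and 5 of 8. Allograft 2 had both, Xist at 87.0 CPM and Ddx3y at 51.8 CPM. The first digit of the animal identifier was 5 for all 4 allografts and 4 for all 8 primary tumours, so what that digit stands for and tumour kind cannot be told apart within these 12 libraries.

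Among 17357 genes tested, 1046 were higher and 692 lower in primary tumours at an adjusted p below 0.05 in edgeR's quasi-likelihood test, which is 6.03% and 3.99% of the genes (10.0% in either direction). All log2 fold changes given here are primary minus allograft from that fit, each with its standard error (SE). The median over all genes was 0.01. In 4.75% of genes every primary tumour lay above every allograft, and in 2.97% every one lay below. By the median Spearman correlation, tumours of 1 kind resembled each other more than tumours of different kinds. This median was 0.972 within allografts, 0.960 within primary tumours and 0.942 over mixed pairs, and the ranges overlapped. The Spearman correlation across genes was 0.944 to 0.985 over the 6 pairs of allografts and 0.933 to 0.972 over the 28 pairs of primary tumours, against 0.907 to 0.952 over the 32 mixed pairs. Genes are not independent replicates, and all pairs share the same gene set. Primary tumours also varied more among themselves: the median SD of log2 (CPM + 0.5) was 0.36 within them and 0.24 within allografts. Of 171 called genes taken from the lists and the naming rule, 96 lost their call without at least 1 of the allografts, and 36 lost it whichever allograft was left out. The latter include Ccn2, Ccr2, Cd52, Cdkn1c, Cdkn2b, Ctla4, Dlx4, Fap, Gzmk, Havcr2, Hoxa13, Impact, Jchain, Klra2, Lipe, Msx1, Ndn, Omd, Pdgfrb, Plagl1, Ppp1r9a, Rspo1 and Twist2.

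The 12 most clearly higher genes of the primary tumours were Sgce, Stox2, Rian, Nptx2, Sh3rf3, Shc2, Kcnip1, Emx2, Dgkk, Pcdh10, Osr1 and Zfp618. In none of them did the ranges of the 2 kinds overlap. Sgce, at chr6:4674350-4747207 on the minus strand, codes for epsilon-sarcoglycan, a membrane protein of the dystrophin-associated complex that is expressed from the paternal allele. It stood at 7.86, 10.4, 14.6 and 7.88 CPM in the allografts and at 43.6, 61.4 and 73.2 CPM (lowest, median, highest) in the primary tumours (log2 fold change 2.55, SE 0.21, adjusted p 6.96e-05 in edgeR). Every primary tumour was above every allograft, with little spread in either group. Nptx2, which codes for a secreted neuronal pentraxin, was at 0, 0.113, 0.0901 and 0.0686 CPM in the allografts and at 6.17, 23.6 and 35.0 CPM in primary tumours. Kcnip1, a calcium-binding regulator of potassium channels, gave 3 counts over the 4 allografts together and 3.46, 6.84 and 24.7 CPM in primary tumours. The ratio of the means was 577, with a 95% counting interval of 197 to 2797. Both genes were near absent in the line and present in each of the 8 independent tumours.

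Emx2, a homeobox factor of brain, urogenital and shoulder girdle development, was at 0.638, 1.06, 0.991 and 0.754 CPM in the allografts and at 8.32, 18.1 and 47.3 CPM in primary tumours (log2 fold change 4.55, SE 0.50). Osr1, a zinc finger factor of connective tissue progenitors in the limb, was at 15, 18.5, 26.9 and 16.1 CPM against 52.3, 80.9 and 111.7 CPM (2.13, SE 0.25). Here the gap between the groups was smaller but the allografts were clearly positive. Pcdh10, an adhesion protein of the protocadherin family, was at 0.0472, 0.0451, 0.113 and 0.0457 CPM in the allografts and at 2.01 to 13.1 CPM in primary tumours. Dgkk, a diacylglycerol kinase gene on the X chromosome, was at 0.0676 CPM or less in the allografts and at 2.37 to 20.2 CPM in primary tumours. The adaptor Shc2 (2.75, SE 0.30), the ubiquitin ligase Sh3rf3 (2.65, SE 0.28), Stox2 (2.99, SE 0.29) and Zfp618 (2.71, SE 0.32) completed the group with similar differences.

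The 12 most clearly lower genes were Slc48a1, Dmrta2, Dlx1, Nqo1, F5, Zfp51, Acot1, Ipmk, Gclc, Slpi, Pthlh and Fam110c, again with no overlap in any. Dmrta2, at chr4:109978053-109983687 on the plus strand, is a doublesex-related factor of early brain development. It was at 14.3, 17.1, 12.8 and 13.2 CPM in the allografts, and none of the 8 primary tumours exceeded 0.314 CPM (log2 fold change −6.32, SE 0.48, adjusted p 4.25e-05 in edgeR). Dlx1, a distal-less homeobox factor at chr2:71528113-71533981, plus strand, had the same form, with 12.9, 15.1, 14.6 and 12 CPM against a highest primary value of 0.250 CPM (−7.05, SE 0.58). These were the 2 called genes that averaged at least 10 CPM in the allografts while staying under 0.5 CPM in every primary tumour. Pthlh, the gene of parathyroid hormone-related protein, which acts on cartilage and bone, was at 110.7, 117.2, 70.7 and 56.5 CPM in the allografts and at 2.85, 6.54 and 16.5 CPM in primary tumours (−3.55, SE 0.39). Slpi, a secreted inhibitor of leukocyte proteases, was at 19.6, 28.1, 26.1 and 16.9 CPM against 0.920, 1.44 and 3.98 CPM. F5 is the gene of coagulation factor V (−3.80, SE 0.35), Acot1 that of an acyl-CoA thioesterase (−3.82, SE 0.38) and Ipmk that of an inositol polyphosphate kinase (−1.55, SE 0.15).

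**Figure D1:**
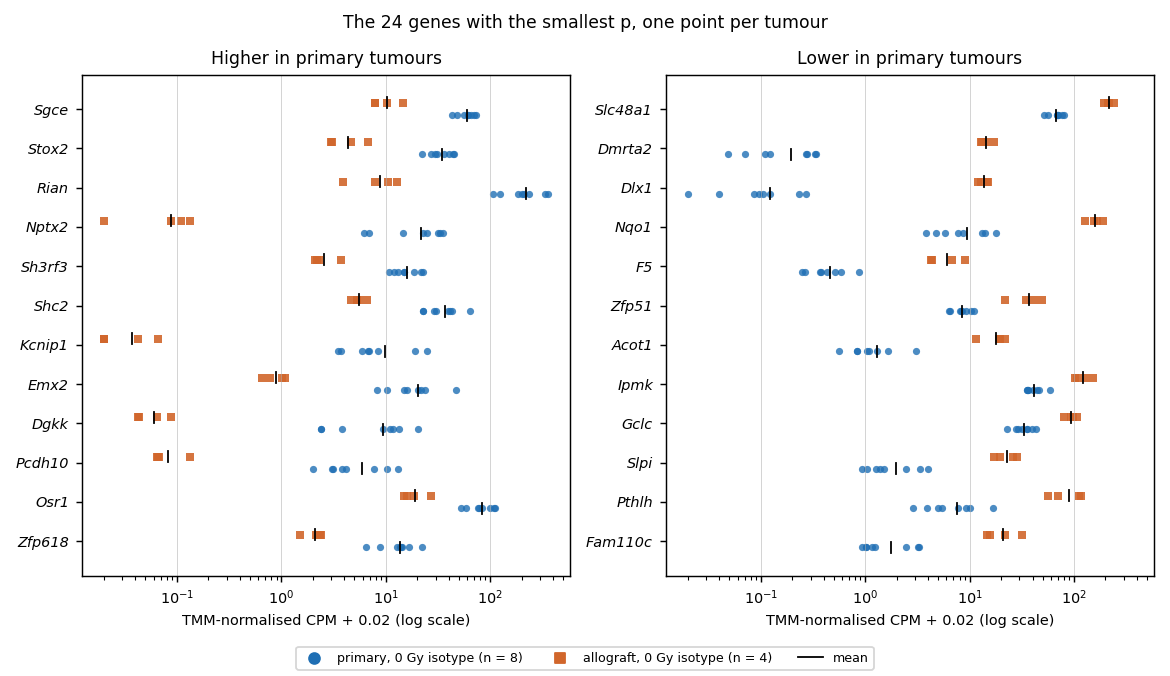
TMM-normalised CPM plus 0.02 (log scale) of the 12 genes higher and the 12 lower in primary tumours with the smallest p, with a point for each of 8 untreated primary tumours (circles) and 4 untreated allografts (squares) and a black line at the mean. The circles and squares of a gene do not overlap in any of the 24 genes, and Dmrta2 and Dlx1 are below 0.5 CPM in every primary tumour.

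Slc48a1, Nqo1 and Gclc belong to genes switched on by NRF2 (Nfe2l2), the factor that answers oxidative and electrophilic stress when it escapes its inhibitor KEAP1. A list of 24 NRF2 targets and regulators was drawn up after these genes had been seen, so its counts are a description. Of the 24, all of which were tested, 11 were lower and 0 higher in primary tumours, against 3.99% and 6.03% of all genes, and the median log2 fold change was −0.69. Slc48a1, a heme transporter of lysosomes, was at 239, 213, 215 and 195 CPM in the allografts and at 51.2, 69.4 and 79.6 CPM in primary tumours (−1.67, SE 0.12). Nqo1, a quinone reductase that detoxifies aromatic compounds, was at 165, 190, 126.9 and 156 CPM against 3.79, 8.18 and 17.7 CPM (−4.08, SE 0.36). Every allograft thus carried many times the Nqo1 level of any primary tumour. Gclc and Gclm code for the catalytic and the modifier subunit of glutamate-cysteine ligase, which starts glutathione synthesis. Gclc was at 105.8, 97.4, 92.8 and 80.1 CPM against 23, 33.6 and 43.6 CPM (−1.50, SE 0.15), and Gclm at 54.7, 64.5, 70.8 and 50.2 CPM against 34.7, 36.9 and 44.8 CPM (−0.65, SE 0.11, adjusted p 0.00433 in edgeR). Txnrd1, cytosolic thioredoxin reductase, was at 339, 394, 410 and 272 CPM against 117.4, 177 and 206 CPM (−1.06, SE 0.16).

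Also lower were the cystine transporter Slc7a11 (−1.80, SE 0.40), the pentose phosphate enzymes G6pdx (−0.65, SE 0.15) and Pgd (−0.55, SE 0.16), the glutathione transferase Gstm1, the exporter Abcc1 and the ferritin light chain Ftl1. Uncalled members included Srxn1 (−0.16, SE 0.45, adjusted p 0.857), Tkt (−0.19, SE 0.20), Prdx1 (−0.55, SE 0.24) and Fth1 (−0.83, SE 0.28). Of the regulators themselves neither Nfe2l2 nor Keap1 was called. Nqo1 is also a target of the aryl hydrocarbon receptor, the receptor of MCA, and of the 8 tested genes of that list 2 were lower (against 3.99% of all genes), Nqo1 and the receptor Ahr itself (−1.03, SE 0.21), whereas Cyp1b1 had a log2 fold change of −1.64 (SE 0.56, adjusted p 0.0809).

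The antioxidant response element that NRF2 binds has the core TGACNNNGC. This core was searched on both strands in windows of 250 bases before to 50 after each listed gene start (RefSeq, GRCm38.p6). It was present in 12.4% of 32851 windows and in 8 of the 25 windows that belong to 18 of the 24 list genes. Of the 8 genes with a matching window Gclm, Txnrd1, G6pdx and Pgd were called, and Nfe2l2, Srxn1, Prdx1 and Me1 were not. No window of the called genes Nqo1, Slc7a11, Gstm1 and Ftl1 held the core. Matching windows of 2 genes lower in primary tumours are shown because they belong to the glutathione and the thioredoxin system, with the core in capitals, here read from the opposite strand. The first lies at chr3:122245307-122245606 and the second, 1 of 3 windows of its gene, at chr10:82858956-82859255, both on the plus strand.
Gclm: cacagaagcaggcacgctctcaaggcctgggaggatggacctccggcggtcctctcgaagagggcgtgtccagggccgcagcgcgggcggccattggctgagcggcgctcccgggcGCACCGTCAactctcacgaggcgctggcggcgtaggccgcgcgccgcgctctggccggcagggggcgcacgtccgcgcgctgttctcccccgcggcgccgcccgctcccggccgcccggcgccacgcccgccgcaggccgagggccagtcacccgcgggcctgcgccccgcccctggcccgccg
Txnrd1: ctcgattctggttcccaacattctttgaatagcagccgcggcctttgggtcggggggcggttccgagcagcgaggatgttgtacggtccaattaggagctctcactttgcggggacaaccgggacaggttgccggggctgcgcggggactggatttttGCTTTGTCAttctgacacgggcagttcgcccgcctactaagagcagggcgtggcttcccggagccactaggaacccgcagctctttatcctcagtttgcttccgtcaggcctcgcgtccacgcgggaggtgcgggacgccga
A match is a run of letters and not a measured binding site.

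Imprinted genes, which are expressed from the allele of only 1 parent and many of which act in growth before birth, were the list with the most members higher in primary tumours: 12 of 31 tested were higher and 0 lower, against 6.03% and 3.99% of all genes. The list's median log2 fold change was 0.77. Of the 12, 5 lie in the Dlk1-Meg3 domain of chromosome 12 (Dlk1, Meg3, Rtl1, Rian and Mirg). With Mir433 and the neighbouring gene Begain they form the longest run of adjacent tested genes called in 1 direction, 7 genes at chr12:109032187-109749460. Dlk1, a Notch-like membrane protein of progenitor cells made from the paternal allele (chr12:109452823-109463336, plus strand), was at 4.56, 10.2, 14.9 and 5.35 CPM in the allografts and at 162, 251 and 1745 CPM in primary tumours (log2 fold change 5.84, SE 0.90, adjusted p 0.00211 in edgeR). Meg3, a maternally expressed long noncoding RNA at chr12:109541001-109571726, was at 5.57, 7.10, 9.93 and 22.3 CPM against 38.2, 160 and 385 CPM (3.89, SE 0.78). Rian, the next noncoding RNA of the maternal allele at chr12:109603940-109661716, was at 3.90, 7.85, 10.5 and 12.8 CPM against 106.2, 206 and 360 CPM (4.65, SE 0.45). Genes of both parental alleles were thus lower in the line, with no overlap between the groups.

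Mirg, the third noncoding RNA of the domain, was higher by 3.88 (SE 0.58). Rtl1, a retrotransposon-derived gene of the paternal allele, had 0 counts in all 4 allografts, and its mean of 0.496 CPM in primary tumours was at least 28.9-fold higher than 3 counts over the 4 allografts would be. Rtl1, Mir433 and the antisense transcript of the locus overlap and the counting of strands is not given in the sources used here, so their separate values are uncertain. At the far end of the domain Dio3, a deiodinase that inactivates thyroid hormone, went the other way without being called (−2.18, SE 0.80, adjusted p 0.104). The genes before Begain, from Setd3 to Wdr25, had no call.

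**Figure D2:**
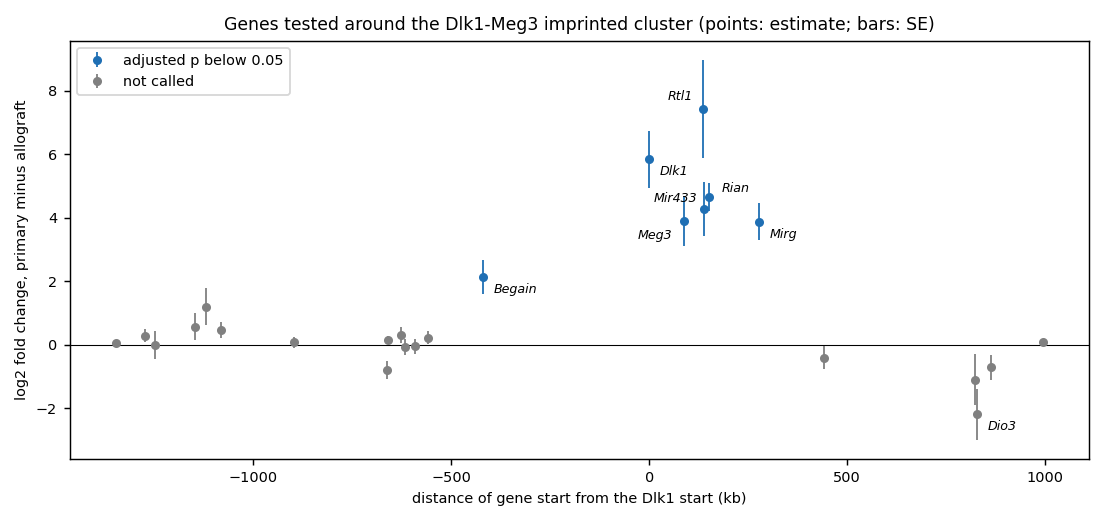
Log2 fold change (primary minus allograft, edgeR) with SE bars of the tested genes from 1500 kb before to 1000 kb after the start of Dlk1, against the distance of each gene's start from it in kb. Begain, Dlk1, Meg3, Rtl1, Mir433, Rian and Mirg are called and stand above 0, no gene before or after them is called, and the fitted value of Rtl1 is no bound because all 4 allografts had 0 counts.

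On chromosome 6 a second imprinted pair was higher. Peg10, a retrotransposon-derived paternal gene at chr6:4747306-4760517 next to Sgce, was at 6.80, 7.26, 14.5 and 6.56 CPM in the allografts and at 18.5, 49.0 and 101.2 CPM in primary tumours (2.68, SE 0.43). Their neighbour Ppp1r9a was higher by 1.36 (SE 0.38). The other higher imprinted genes were Plagl1, a growth-regulating zinc finger gene (2.89, SE 0.79), Ndn, which codes for necdin (3.52, SE 0.95), Cdkn1c, the cyclin-dependent kinase inhibitor p57 (2.41, SE 0.66), and Impact (0.63, SE 0.18). Ndn and Cdkn1c did not separate the kinds: Ndn ran from 1.05 to 234 CPM in primary tumours around allograft values of 5.10 to 11.0 CPM. H19 (−0.07, SE 0.70), Grb10 (1.16, SE 0.47), Igf2r (1.70, SE 0.51, adjusted p 0.0507) and Gnas (0.37, SE 0.14) were not called.

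Of the 8 tested Dlx, Msx and Dmrt factors, 4 were lower in primary tumours and 0 higher, against 3.99% and 6.03% of all genes: Dmrta2, Dlx1, Msx1 (−2.26, SE 0.66) and the barely expressed Dlx4 (−2.48, SE 0.64). Dlx2, the neighbour of Dlx1, was at 11.7, 13.2, 12.3 and 10.5 CPM in the allografts and at 0.112, 2.76 and 13.0 CPM in primary tumours, where 1 tumour reached the allograft range (−1.67, SE 0.75, adjusted p 0.179). Of 20 limb identity and patterning factors, Tbx15 (1.66, SE 0.22) and Emx2 were higher and Irx5 lower, shares near those of all genes. Irx5, an Iroquois homeobox factor, was at 22.4, 24.9, 15.2 and 19.3 CPM against 0.587, 1.45 and 5.13 CPM (−3.40, SE 0.50). The hindlimb factor Pitx1 was present in both kinds, at 62.1 to 79.7 CPM in allografts and 16.5 to 77.6 CPM in primary tumours (−0.75, SE 0.36, adjusted p 0.213).

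Of 31 Hox genes tested, Hoxd8 (−1.21, SE 0.26) and Hoxa13 (−2.63, SE 0.74) were lower and 0 higher, 2 of 31 against 3.99% of all genes. Hoxd8 was at 84.5, 69.3, 58.2 and 67.1 CPM in the allografts and at 12.3, 29.9 and 47.9 CPM in primary tumours. Hoxa11, a gene of the middle limb segment, was at 40.5 to 58.3 CPM in the allografts and at 1.73, 13.8 and 40.3 CPM in primary tumours, without overlap but also without a call (−1.58, SE 0.67, adjusted p 0.155). Hoxa11 thus spanned a wide range among primary tumours. None of the 20 tested Notch and Hedgehog genes was called by edgeR (2 had an unadjusted p below 0.05). Of 28 Wnt genes only the secreted enhancer Rspo1 was called, lower in primary tumours (−2.56, SE 0.69), against 3.99% of all genes lower.

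The called genes that averaged at least 10 CPM in primary tumours and stayed under 0.5 CPM in every allograft were Nptx2, Tcfl5, Bhlhe22, Irx1, Irx2 and Robo2. Robo2, an axon guidance receptor, ran from 2.30 to 27.6 CPM in primary tumours and did not exceed 0.383 CPM in the allografts (5.51, SE 0.86). Irx1 and Irx2, 2 neighbouring Iroquois genes of chromosome 13, were not shared by all primary tumours. Irx1 was at 80.4, 79.99, 3.43, 0.561, 60.1, 91.6, 0.150 and 0.377 CPM in primary tumours 1 to 8, so that 4 tumours were high and 3 were near the allografts, which had 0.226 CPM or less. Its call (8.48, SE 2.15, adjusted p 0.0264) was lost when any 1 of the 4 allografts was left out. Tcfl5, a helix-loop-helix factor of germ cells, likewise ran from 0.0255 to 61.0 CPM among primary tumours.

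Clustered protocadherins, adhesion molecules that neurons and other cells express in individual combinations, were looked up after the data were seen. Of 44 tested, 7 were higher in primary tumours and 0 lower, against 6.03% and 3.99% of all genes. All 7 were from the gamma cluster, and the median log2 fold change was 1.12. Pcdhgc3 was at 119.9, 105.6, 127.9 and 75.1 CPM in the allografts and at 134.5, 162 and 216 CPM in primary tumours (0.67, SE 0.18). The beta members Pcdhb16 and Pcdhb17 pointed the other way without being called (−1.40, SE 0.48 and −1.39, SE 0.48). Members share exons and near-identical sequence, so that the split of reads between them is uncertain.

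Mesenchymal and vascular wall markers were called in part. Of 19 fibroblast and progenitor genes 6 were higher (Pdgfrb, Lum, Dpt, Fap, Osr1 and Gsn) and 2 lower (Twist2 and Ly6a), against 6.03% and 3.99% of all genes. Their median log2 fold change was 0.63. Lum, the keratan sulphate proteoglycan lumican, was at 15.6, 32.4, 49.8 and 18.1 CPM in the allografts and at 71.9, 189 and 786 CPM in primary tumours (3.24, SE 0.72). Ly6a, which codes for the progenitor antigen Sca-1 and is induced by interferon, was at 713, 745, 771 and 471 CPM against 50.9, 116.2 and 450 CPM (−2.0, SE 0.46). Dcn (0.90, SE 0.36), Pdgfra (0.74, SE 0.26), Cd34 and Vim (0.63, SE 0.21, adjusted p 0.0783) were not called.

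Of 14 pericyte and smooth muscle genes 4 were higher (Acta2, Tagln, Cnn1 and Cspg4) and 0 lower, against 6.03% and 3.99% of all genes. Tagln, the actin-binding protein transgelin, was at 17.2, 22.5, 23.9 and 50.5 CPM in the allografts and at 39.9, 373 and 499 CPM in primary tumours (3.45, SE 0.65, adjusted p 0.00635 in edgeR). Cspg4, the surface proteoglycan NG2, was at 12.6, 9.56, 13.3 and 11.9 CPM against 14.6, 72.8 and 107.6 CPM (2.57, SE 0.44). Acta2, smooth muscle actin, was at 84.3 to 136.99 CPM in the allografts and at 63.3, 542 and 966 CPM in primary tumours, so that the kinds overlapped. Its call and that of Cnn1 were lost without any 1 of the 4 allografts. The pericyte genes Rgs5 (0.33, SE 0.42) and Notch3 (0.71, SE 0.56) were not called. None of 18 endothelial genes was called by edgeR (1 had an unadjusted p below 0.05), and their median log2 fold change was 0.01. Pecam1 was at 71.3, 98.6, 133.9 and 74.6 CPM in the allografts and at 58.5, 86.2 and 180 CPM in primary tumours. None of 6 red blood cell genes was called by edgeR (5 had an unadjusted p below 0.05, smallest adjusted p 0.0619). All 6 had log2 fold changes below 0, with a median of −1.49. Their summed level was 77.4 to 545 CPM in the allografts and 35.2 to 170 CPM in primary tumours.

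Collagen and matrix genes were called mainly in the higher direction. Of 41 collagen genes 6 were higher (Col1a2, Col4a2, Col4a5, Col6a3, Col8a1 and Col15a1) and 0 lower, against 6.03% and 3.99% of all genes, with a median of 0.75. Of 28 other matrix and crosslinking genes 5 were higher (Fn1, Bgn, Sparcl1, Loxl1 and Loxl3) and 1 lower (Omd), with a median of 1.15. The summed level of all listed collagens was 12100 to 16260 CPM in the allografts and 15081 to 48257 CPM in primary tumours, of which 4 and 5 lay inside the allograft range. Col1a2, the second chain of type I collagen, was at 1459, 1476, 2494 and 1396 CPM against 1923, 5636 and 8022 CPM (1.67, SE 0.38). Fn1, fibronectin, was at 1738, 1546, 1893 and 1383 CPM against 1407, 5454 and 7966 CPM (1.65, SE 0.40), with 1 primary tumour inside the allograft range. Loxl3, an enzyme that crosslinks collagen, separated the kinds, with 92.6, 70.0, 86.1 and 73.8 CPM against 145.5, 293 and 628 CPM (1.98, SE 0.37). Col1a1 (1.33, SE 0.49, adjusted p 0.105), Col3a1 (0.65, SE 0.29), Postn (1.37, SE 0.60) and Tnc (1.33, SE 0.66) were not called. Of 23 metalloproteinases and inhibitors, which cut matrix or restrain its cutting, 1 was higher and 2 were lower, against 6.03% and 3.99% of all genes. Mmp17 was higher (1.91, SE 0.41), and Mmp25 (−1.71, SE 0.42) and the neutrophil collagenase Mmp8 (−2.66, SE 0.61) were lower. In the TGF-beta and BMP list of 25, 2 were higher and 1 lower, near the 6.03% and 3.99% of all genes. Tgfbr2 (0.91, SE 0.21) and Ccn2 (2.96, SE 0.78) were higher. Inhba, the activin A subunit, was lower, at 570, 562, 400 and 290 CPM in the allografts and 58.3, 105.9 and 163 CPM in primary tumours (−2.04, SE 0.26).

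Genes of skeletal muscle, the tissue in which both kinds grew, differed widely in level within each kind. None of the 20 muscle fibre genes was called by edgeR (4 had an unadjusted p below 0.05), although their median log2 fold change was −1.89. Acta1, skeletal actin, was at 17.2, 643, 5066 and 2298 CPM in the allografts and at 12.1, 357 and 1426 CPM in primary tumours. The summed list ran from 115.9 to 27247 CPM in the allografts and up to 8184 CPM in primary tumours, so that allografts 3 and 4 were the 2 most muscle-rich of the 12. Of 17 genes of muscle precursors and embryonic muscle, Cdh15 (−2.28, SE 0.61) and Mymx (−3.81, SE 0.96) were lower in primary tumours and 0 higher, against 3.99% and 6.03% of all genes. The other 15 were not called. The list's median log2 fold change was −2.28, 12 of the 17 lay below 0 and 8 had an unadjusted p below 0.05 in edgeR. Under anti-PD-1 8 of 16 tested were called lower, and 0 were in each irradiated arm. The summed list, in which the highest genes weigh most, had a median of 250.2 CPM in primary tumours and 259.6 CPM in allografts. Of 11 adipocyte genes Fabp4 (−1.88, SE 0.55) and Lipe (−0.72, SE 0.21) were lower and 0 higher, against 3.99% and 6.03% of all genes. The other 9 were uncalled, but all 11 had log2 fold changes below 0 (median −2.75, 10 with an unadjusted p below 0.05 in edgeR). With the muscle level as a covariate 0 adipocyte genes were called, while 11 imprinted genes were, all of them higher and 10 of them among the 12 called without the covariate.

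Of 16 genes of tendon, cartilage and bone, Sox9, the cartilage factor, was higher (0.85, SE 0.19) and Ibsp lower, near the 6.03% and 3.99% of all genes. The Ibsp call rested on 1 allograft: bone sialoprotein was at 40.4 CPM in allograft 3 and at 0.236, 0.0226 and 0.160 CPM in the others, and without allograft 3 its log2 fold change was 0.41. Spp1, osteopontin, was at 862 to 1956 CPM in the allografts and at 132.7, 207 and 1494 CPM in primary tumours without a call (−1.85, SE 0.60, adjusted p 0.0696). None of the 6 tested epithelial genes was called by edgeR (1 had an unadjusted p below 0.05). Krt8, a keratin of simple epithelia, was at 70.0, 72.1, 82.3 and 49.9 CPM in the allografts against 0.357, 3.12 and 69.5 CPM in primary tumours (−2.44, SE 1.01, adjusted p 0.145). No Schwann cell gene was called among 11 by edgeR (3 had an unadjusted p below 0.05).

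**Figure D3:**
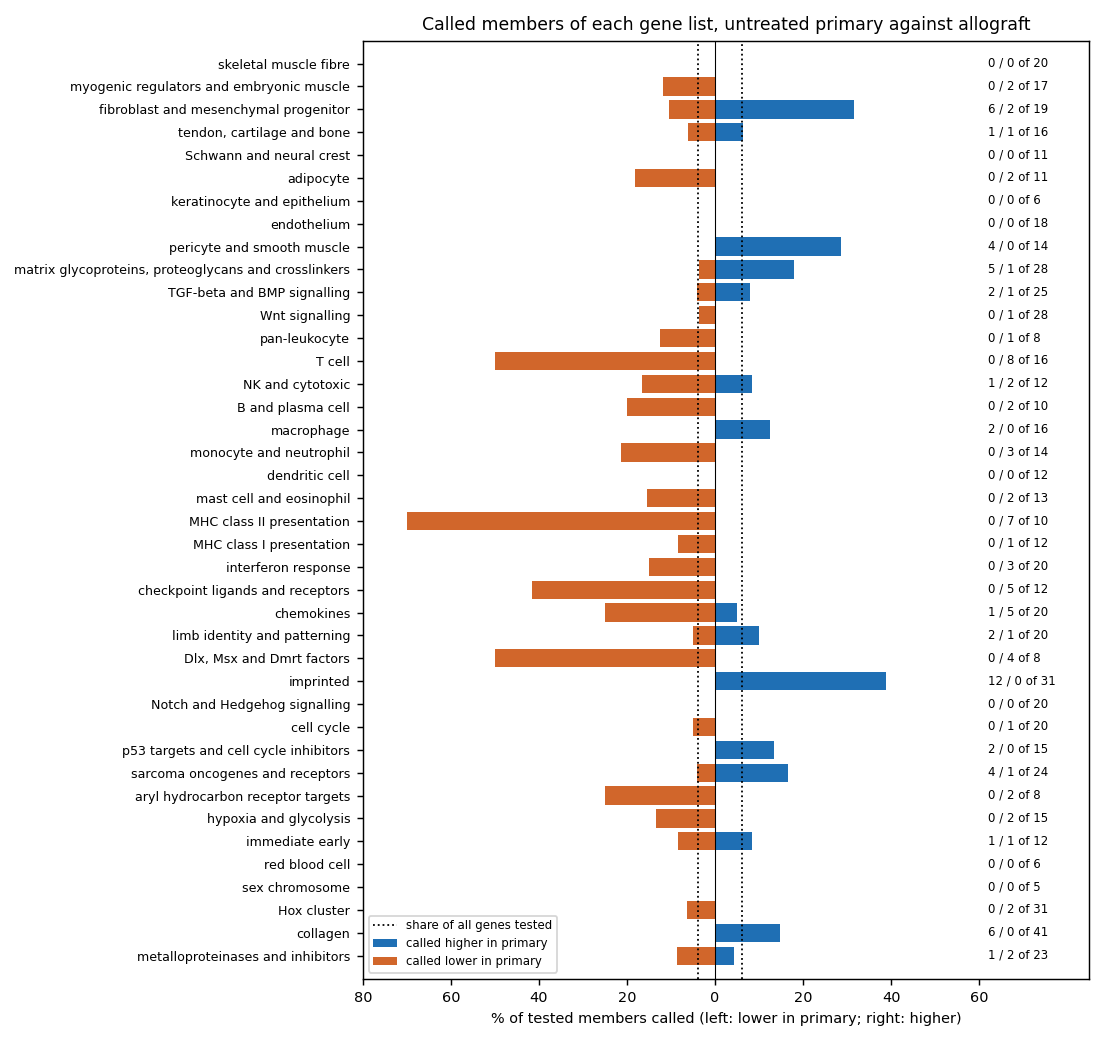
Share of the tested members of 40 gene lists, without the 4 lists added after the data were seen, called higher (right, blue) and lower (left, orange) in primary tumours by edgeR, in percent, with the counts as higher / lower of tested at the right edge. Dotted lines mark the shares of all genes tested, 6.03% higher and 3.99% lower, and among these 40 lists imprinted, fibroblast and pericyte genes extend furthest right, while MHC class II, T cell, Dlx and checkpoint genes extend furthest left.

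Several MHC class II, T cell and checkpoint genes were lower in primary tumours. Of 10 MHC class II genes 7 were lower and 0 higher (median log2 fold change −1.33), of 16 T cell genes 8 and 0 (median −1.22), and of 12 checkpoint ligands and receptors 5 and 0 (median −1.04), against 3.99% of all genes lower. MHC class II molecules present peptides to CD4 T cells. H2-Ab1 was at 1126, 1439, 1907 and 900 CPM in the allografts and at 237, 369 and 803 CPM in primary tumours (−1.54, SE 0.33, adjusted p 0.0120 in edgeR). Ciita, the master regulator of the class II genes, was at 93.6, 80.7, 180 and 51.0 CPM against 14.9, 25.1 and 67.7 CPM (−1.76, SE 0.40). H2-Aa, H2-Eb1, Cd74, H2-DMa and H2-DMb1 were lower by similar amounts. Cd3e, a chain of the T cell receptor complex, was at 10.5, 16.4, 18.7 and 6.01 CPM against 1.72, 2.54 and 7.81 CPM (−1.78, SE 0.46). Cd8a, the coreceptor of cytotoxic T cells, was at 16.7, 20.7, 24.7 and 10.3 CPM against 1.15, 2.71 and 10.7 CPM (−2.19, SE 0.57). In each of these genes the lowest allograft was number 4, and the highest primary tumours came close to it or passed it. Cd4, also made by macrophages, was not called (0.25, SE 0.35, adjusted p 0.697).

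Among checkpoint genes, Pdcd1, which codes for the target of anti-PD-1, was at 8.93, 20.1, 14.2 and 5.69 CPM in the allografts and at 0.628, 1.79 and 5.2 CPM in primary tumours (−2.33, SE 0.48). Its ligand gene Cd274 was at 22.6, 26.0, 44.6 and 12 CPM against 3.05, 5.66 and 20.0 CPM (−1.76, SE 0.47), and the second ligand gene Pdcd1lg2 was lower too (−2.18, SE 0.52). Ctla4 (−1.57, SE 0.43) and Havcr2 (−1.05, SE 0.31) were the other 2 calls, and Lag3 was not called (−0.66, SE 0.44). Both receptor and ligands of the PD-1 axis were thus more abundant in the allografts before treatment. Of 20 interferon response genes 3 were lower, against 3.99% of all genes: Cxcl9 (−2.75, SE 0.57), Irf1 (−1.23, SE 0.25) and Gbp2 (−1.50, SE 0.42), which respond to interferon gamma. Cxcl9, a chemokine that draws T cells, was at 401, 402, 694 and 125.3 CPM in the allografts and at 15.9, 34.5 and 130.96 CPM in primary tumours. Ifng itself was at 1.16, 0.834, 2.09 and 0.274 CPM against 0.0222, 0.0687 and 0.434 CPM (−2.86, SE 0.70). Isg15 (0.62, SE 0.61), Ifit3 (1.16, SE 0.60) and Irf7 (0.42, SE 0.60), classical targets of type I interferon, were not called, and the median of the whole list was 0.36.

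The lower T cell counts depended on particular libraries. Without allograft 2 the calls were 0 of 16 in the T cell list, 4 of 10 in the class II list and 0 of 12 among checkpoint genes, and without allograft 3 they were 2, 3 and 2. Without primary tumour 4 they were 11, 7 and 9. Primary tumour 4 was the highest primary tumour in the summed cytotoxic, interferon, MHC class I and checkpoint lists. With the pan-leukocyte level as a covariate 0 T cell, 1 class II and 0 checkpoint genes were called. With the first identifier digit as a covariate in a fit of all 48 tumours the counts were 0, 0 and 1. Among the 3 primary tumours and 3 allografts with Ddx3y and without Xist they were 0, 0 and 0, where 287 genes were called in all. Calls over all genes moved too, from 1738 in the main fit to 732 without allograft 2 and 1204 without allograft 3. They were 2187 without primary tumour 4, 919 with the leukocyte covariate and 873 with the digit covariate. The part of differences between libraries in these results was not tested.

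Pan-leukocyte genes overlapped between the kinds as a sum. Of 8 pan-leukocyte genes only Cd52 was called, lower (−1.10, SE 0.31), against 3.99% of all genes lower. The summed list was at 1028, 1271, 1807 and 981 CPM in the allografts and at 824 to 1401 CPM in primary tumours. Of 16 macrophage genes 2 were higher and 0 lower, against 6.03% and 3.99% of all genes. Mrc1, the mannose receptor CD206 of tissue-resident macrophages, was at 55.7, 111.5, 99.5 and 102.2 CPM in the allografts and at 113.9, 263 and 363 CPM in primary tumours (1.43, SE 0.31). Lyve1, a hyaluronan receptor of perivascular macrophages and lymphatic vessels, was at 1.09, 2.86, 5.27 and 1.92 CPM against 7.14, 25.3 and 43.9 CPM (3.13, SE 0.62). Neither gene overlapped between the kinds. Csf1r (0.44, SE 0.22), C1qa (−0.08, SE 0.22) and C1qb (−0.21, SE 0.22), general macrophage genes, were not called.

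Of 14 monocyte and neutrophil genes 3 were lower, against 3.99% of all genes: the monocyte receptor Ccr2 (−1.06, SE 0.31), Csf3r (−1.29, SE 0.31), the receptor of granulocyte growth factor, and Retnlg (−3.13, SE 0.54). In all, 13 of the 14 had log2 fold changes below 0 (median −1.92, 11 with an unadjusted p below 0.05 in edgeR). Of 20 chemokine genes 5 were lower (Ccl3, Ccl6, Ccl11, Cxcl14 and Cxcl16) and 1 higher, against 3.99% and 6.03% of all genes. The Ccl3 call was lost without any 1 of the 4 allografts, that of Ccl11 without allograft 1, 2 or 4, that of Ccl6 without 2 or 4 and that of Cxcl14 without 2 or 3. The higher one, Cxcl12, a chemokine of fibroblasts that binds CXCR4, was at 165, 214, 247 and 246 CPM in the allografts and at 430, 502 and 721 CPM in primary tumours (1.25, SE 0.17). Cytotoxic effector genes did not pass the test, Gzmb at −0.96 (SE 0.82) and Prf1 at −0.60 (SE 0.88), and primary tumour values of Gzmb ran from 4.62 to 113.1 CPM. In that list Ifng and Gzmk were lower and Klrb1c higher (2.58, SE 0.67). Of 12 MHC class I genes only the immunoproteasome subunit Psmb10 was called, lower (−1.22, SE 0.28), against 3.99% of all genes lower. All 12 had log2 fold changes below 0 (median −0.75, 7 with an unadjusted p below 0.05), and under anti-PD-1 9 of the 12 were called lower. None of 12 dendritic cell genes was called by edgeR (3 had an unadjusted p below 0.05). Of 13 mast cell and eosinophil genes, Siglecf (−2.44, SE 0.48) and Prg2 (−3.00, SE 0.80) of eosinophils were lower and 0 higher, against 3.99% and 6.03% of all genes. The mast cell protease Tpsab1 was uncalled at 1.54 (SE 0.85). In this list 8 of the 13 had log2 fold changes above 0, and the median was 1.11.

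**Figure D4:**
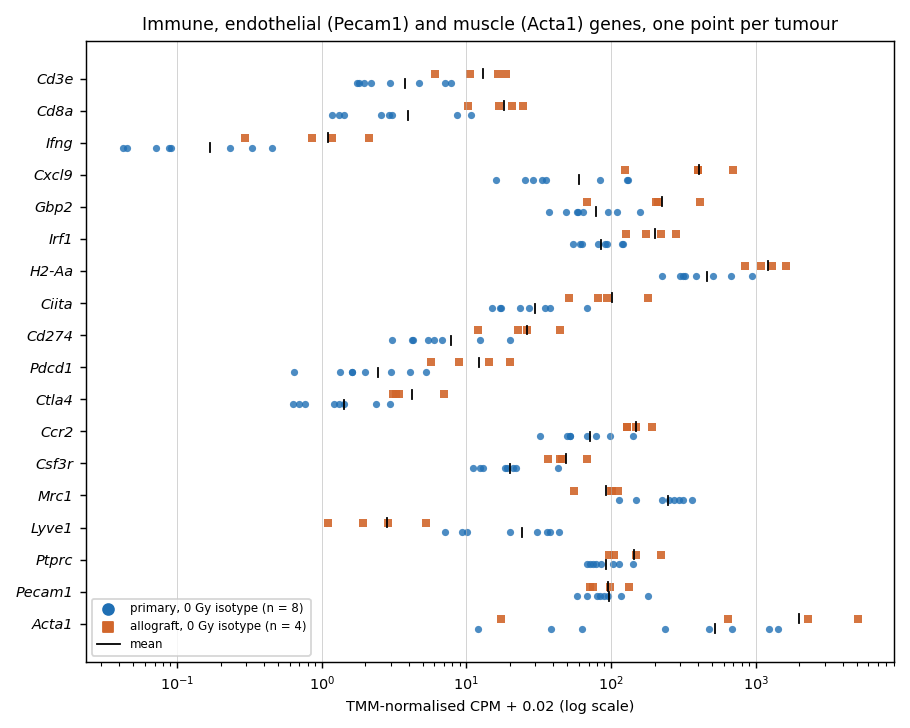
TMM-normalised CPM plus 0.02 (log scale) of immune genes, of the endothelial gene Pecam1 and of the muscle gene Acta1, with a point for each of 8 untreated primary tumours (circles) and 4 untreated allografts (squares) and a black line at the mean. T cell, class II and PD-1 axis genes sit further right in allografts with ranges that touch or overlap in most, Mrc1 and Lyve1 sit further right in primary tumours, and Ptprc, Pecam1 and Acta1 overlap.

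A minority of antibody genes were lower in primary tumours. Jchain, the joining chain of secreted antibodies, was at 40.7, 56.1, 44.6 and 62.8 CPM in the allografts and at 3.66, 10.5 and 40.7 CPM in primary tumours (−1.88, SE 0.54), and Mzb1 of plasma cells was lower as well (−1.81, SE 0.43). Immunoglobulin segments, looked up after the data were seen, gave 12 lower and 0 higher of 87 tested, against 3.99% and 6.03% of all genes, with a median of −1.29. B cell genes proper, such as Cd79a (−0.78, SE 0.41) and Ighm (0.11, SE 0.35), were not called.

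The Ly49 receptors (Klra genes), which natural killer and some myeloid cells use to read MHC class I and whose number differs between inbred mouse strains, split without a common direction. They too were looked up after the data were seen. Of 12 tested, Klra3, Klra8, Klra9 and Klra14-ps were higher and Klra2, Klra6 and Klra17 lower, against 6.03% and 3.99% of all genes. Klra3 had 0 counts in all 4 allografts, and its mean of 0.382 CPM in primary tumours was at least 22.3-fold above 3 counts over the 4 allografts. Over all 48 tumours, 0 of 11 allografts and 0 of 2 primary tumours whose identifier began with 5 had 10 or more Klra3 counts, against 3 of 5 allografts and 17 of 30 primary tumours whose identifier began with 4. With the identifier digit as a covariate 0 of the Klra genes were called. The reads of such closely related genes can be split between copies, so single values are uncertain.

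Of 20 cell cycle genes 1 was called, Rrm2, lower in primary tumours (−0.92, SE 0.19), against 3.99% of all genes lower. Mki67 had a log2 fold change of −0.10 (SE 0.30). Cdkn2a and Cdkn2b, the neighbouring cell cycle inhibitors of chromosome 4, were higher. Cdkn2a was at 406, 415, 199 and 415 CPM in the allografts and at 663, 790 and 1512 CPM in primary tumours (1.34, SE 0.28), with no overlap. The p53 targets Mdm2 (0.13, SE 0.14), Ccng1 (−0.60, SE 0.25) and Phlda3 (0.75, SE 0.28) were not called. Of 24 sarcoma oncogenes and receptors 4 were higher (Myc, Egfr, Fgfr2 and Axl) and 1 lower (Hgf), against 6.03% and 3.99% of all genes. Egfr, the epidermal growth factor receptor, was at 21.9, 24.5, 30.8 and 22.5 CPM against 46.9, 80.3 and 131.9 CPM (1.69, SE 0.27), and Myc was at 60.8, 54.3, 77.2 and 69.2 CPM against 102.8, 115.6 and 234 CPM (1.05, SE 0.23). Hgf, the ligand of the receptor MET, was at 224, 201, 143.6 and 130.2 CPM against 18.5, 53.6 and 135.5 CPM (−1.57, SE 0.40). The hypoxia list held 2 lower genes of 15, Vegfa (−1.48, SE 0.31) and Hk2 (−1.18, SE 0.30), and 0 higher, against 3.99% and 6.03% of all genes. Pgk1 and Ldha were uncalled. Nr4a1, an immediate early nuclear receptor, was at 159, 308, 142.9 and 77.4 CPM against 10.2, 15.8 and 39.6 CPM (−3.13, SE 0.42), whereas Egr1 (0.59, SE 0.44) and Junb (−0.48, SE 0.26) were not called and Jun was higher (0.72, SE 0.18).

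By chromosome, the X held the largest share of genes higher in primary tumours, 65 of 564 (11.5%), with 10 lower, against 5.85% of autosomal genes. The kinds differ in how many tumours express Xist, as given above. With Xist as a covariate 53 X-linked genes were called higher (9.40%, against 3.87% of autosomal genes), and among the 3 and 3 tumours with Ddx3y and without Xist 15 of 548 were (2.74%, against 0.904%). One run of 4 neighbours on the X, Armcx1, Armcx6, Armcx3 and Armcx2, was higher together. In all, 36 runs of 3 or more adjacent tested genes were called in 1 direction, 23 of them higher, and they included the class II genes H2-Ab1, H2-Aa and H2-Eb1.

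The same difference was measured in 3 other arms of 8 primary tumours and 4 allografts each, which share no tumour with the untreated ones but use the same allograft line. Under anti-PD-1 without radiation 8.94% of genes were called (1560 of 17455, 4.94% higher and 3.99% lower), and after 20 Gy with isotype 4.76% (839 of 17624, 2.36% higher and 2.40% lower). After 20 Gy with anti-PD-1 it was 1 of 17674 (0.00566%), the gene Gm17833, named after its value was seen. That arm had 2965 genes with an unadjusted p below 0.05, and DESeq2 called 1005. Its calls rose to 239 without primary tumour 4, which held 19636 CPM of Acta1. Of the genes called at baseline and tested again, 899 of 1710 (52.6%) were called with the same sign under anti-PD-1 and 370 of 1695 (21.8%) after 20 Gy with isotype, which is 57.6% and 44.1% of the calls of those arms. In the same arms 280 genes were called all 3 times with 1 sign, of which 177 were higher. All 24 genes with the smallest p kept their sign in these 2 arms, and 21 of them were called in each. After 20 Gy with anti-PD-1 the sign was kept by 23, edgeR called 0, and 7 separated the kinds.

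Dmrta2 in the 3 other arms was at 10.5 to 18.5, 11.4 to 16.4 and 2.15 to 13.2 CPM in allografts, and its highest value in any of the 24 primary tumours was 3.10 CPM. Nqo1 kept the kinds apart under anti-PD-1 (129.4 to 178 against 4.96 to 23 CPM) and after 20 Gy with isotype (79.6 to 158 against 5.12 to 10.8 CPM), but after 20 Gy with anti-PD-1 primary tumours ran up to 141.4 CPM and overlapped. Dlx1 was high in a single primary tumour of each of 2 arms, 7.82 CPM under anti-PD-1 and 15.1 CPM after 20 Gy with isotype, where allografts had 9.33 to 15.9 and 5.41 to 8.68 CPM. Of the 11 lower NRF2 genes 10 were called again under anti-PD-1 and 8 after 20 Gy with isotype, and of the 12 imprinted genes 9 and 8. After 20 Gy with anti-PD-1 none of either was called by edgeR, and 7 of the 11 NRF2 genes and 10 of the 11 imprinted genes tested there had the same sign as without treatment. The T cell list gave 7 lower of 16 under anti-PD-1 and 0 in each irradiated arm, and the class II list 1 of 10 under anti-PD-1 and 0 in each irradiated arm. All 8 T cell and all 7 class II genes called without treatment had a log2 fold change below 0 in each of the 3 other arms. Whether the difference between the kinds changed with treatment was tested over all 48 tumours and 19327 genes. edgeR called 0 genes (1155 had an unadjusted p below 0.05, smallest adjusted p 0.140), so by edgeR the loss of a call in an arm is not shown to be a change. DESeq2 called 17, of which 10 were called at baseline. Among the 24 genes with the smallest p, 1 had an adjusted p below 0.05 in that DESeq2 test.

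**Figure D5:**
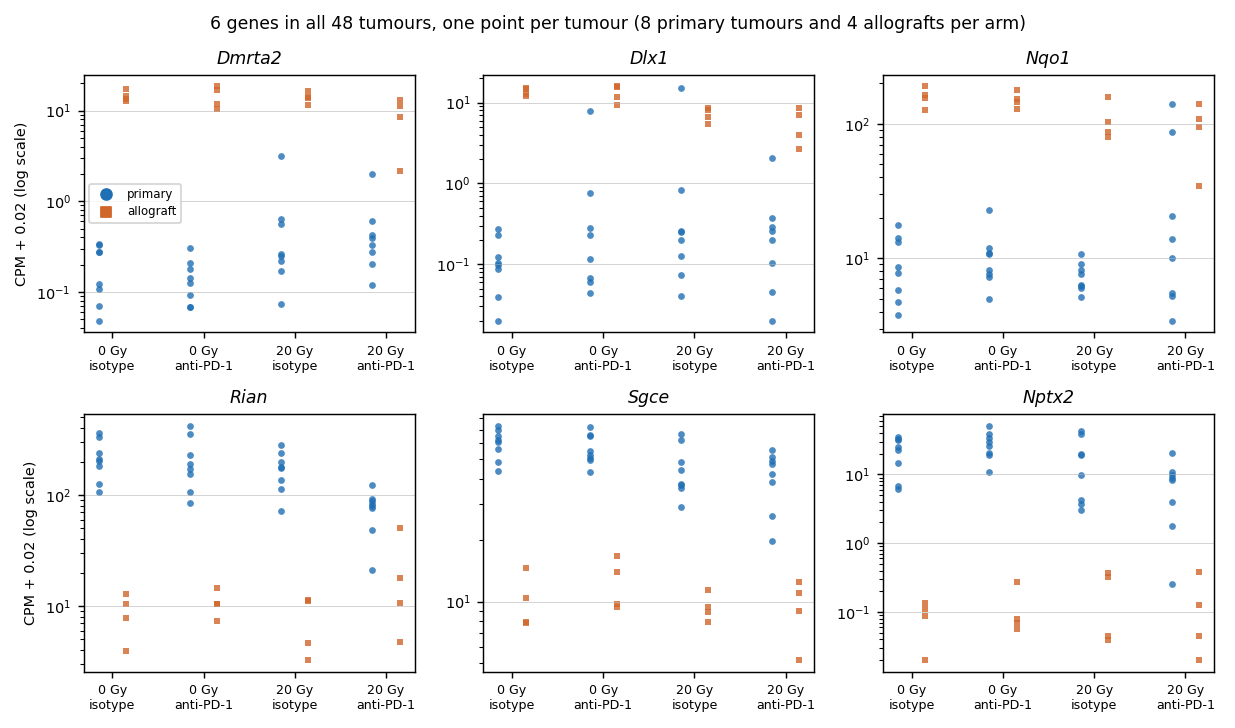
CPM plus 0.02 (log scale) of Dmrta2, Dlx1, Nqo1, Rian, Sgce and Nptx2 in all 48 tumours, by arm, with a point for each primary tumour (circles, 8 per arm) and allograft (squares, 4 per arm). Dmrta2 is higher in every allograft than in any primary tumour of its arm, Sgce is lower, and Dlx1 and Nqo1 show 1 or 2 primary tumours near or at allograft level in treated arms.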

How the data were processed

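Bulk RNA-seq was measured in 48 mouse tumours, of which 12 carry the main comparison. The authors deposited 1 table of raw counts per Ensembl gene (36854 genes). Per the submitters' processing notes, Trimmomatic 0.36, STAR 5.5.4b, HTSeq and the mm10 build were used. Strand settings and filters are not given in the sources used here, and the table is named for a first run. Per the labels' protocols, libraries were stranded and made from poly(A) RNA with an integrity number above 7. GENCODE M21 named 36796 of the genes and left 58 unnamed, and coordinates are those of that annotation on GRCm38.

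Counts were filtered with filterByExpr, scaled by TMM and tested with edgeR 4.0.16 (R 4.3.3) by the quasi-likelihood F test, with Benjamini-Hochberg adjustment over all tested genes. A gene is called at an adjusted p below 0.05. The SE was derived from each gene's log2 fold change and its F value. The biological coefficient of variation was 0.44. CPM are TMM-normalised and not corrected for gene length, so levels of different genes are not compared. Alternatives used limma 3.58.1 and DESeq2 1.42.0 (an adjusted p of NA stays NA), other scaling, no filter, all 48 tumours, covariates and each tumour left out. Tested on simulated counts of 8 against 4 tumours with 17126 genes, the fit recovered 90% of genes changed 4-fold and 7% of those changed 2-fold. The changed genes were drawn only from those with many counts, and all genes were given the same coefficient of variation, 0.45. The recovery therefore does not apply to genes with few counts or a wider spread. Counts of any 2 tumours of a kind differed beyond sampling noise (chi-square over its degrees of freedom at least 110), so no library was a copy of another of its kind. Each tumour was used as a sample of its own, although the allografts are repeats of 1 line. Nothing in the labels says more of how samples were taken, and p-values measure the spread between these tumours. Counting error is small for genes of several CPM, and intervals and floors cover counting error only.

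Genes are named by rule: 12 called genes per direction by lowest p, if their average reached 5 CPM in the kind with more, from each list, called members and up to 4 uncalled ones of highest level (of the added lists and the T cell list, examples), called genes averaging 10 CPM or more in 1 kind that stay below 0.5 CPM throughout the other, and Trp53. Other genes were named after their values were seen: the added lists of NRF2, Ly49, protocadherin and immunoglobulin genes, and neighbours. The comparison, the rule and the lists were chosen with earlier results of these data known. Each list is described by counts and medians, not tested. Replicate numbers follow accession order and pair nothing.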

Additional observations from a re-analysis of the deposited data

Results flagged for a closer look

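In groups of 4 or 8 tumours a value was singled out when its gap to the next tumour was large for the group's whole range. Of 110 groups looked at, 15 (13.6%) held such a value, where chance gives about 1 in 20 for normally distributed values, which CPM and list sums need not be. Primary tumour 4 stood above the other primary tumours in 4 immune lists: 300.4 CPM in the summed cytotoxic list, 10783 CPM in MHC class I presentation, 3875 CPM in the interferon response and 320.4 CPM in checkpoint genes. It also had the highest Acot1 value among primary tumours (3.01 CPM). Primary tumour 1 was high in the monocyte and neutrophil list (2054 CPM), primary tumour 5 in tendon, cartilage and bone genes (1668 CPM) and primary tumour 3 in epithelial genes (296 CPM). Primary tumour 6 was high in Emx2 (47.3 CPM) and in its mitochondrial share (1.62%), primary tumour 7 in Ipmk (59.1 CPM) and primary tumour 2 in Tcfl5 (61.0 CPM). Among the allografts, number 3 was high in Sh3rf3 (3.72 CPM) and Pcdh10 (0.113 CPM), and number 1 had the lowest total, 39.6 M counts.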

How the results depend on the processing

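The 24 genes with the smallest p were called in the same direction under all 24 alternatives, which include 12 fits that left out 1 tumour. Of 4091 values of the 171 named called genes, 3041 stayed called with the same sign, 1049 were no longer called and 1 was reversed, Ibsp without allograft 3 (0.41, where leaving out each tumour gave −6.18 to 0.41). For the untreated difference (1738 called, 1046 higher, 692 lower) the counts were 2868, 1689 and 1179 with DESeq2, 4146, 2115 and 2031 with limma voom, 1132 in all and 430 lower with Xist as a covariate (702 higher), 919, 586 and 333 with the leukocyte covariate, 873, 666 and 207 with the identifier digit as a covariate in all 48 tumours, and 501, 301 and 200 for differences beyond 1.5-fold (glmTreat). In the 3 and 3 tumours with Ddx3y and without Xist, an alternative chosen after seeing the data and with fewer tumours in the fit, 287 were called. Leaving out 1 tumour gave 732 to 2187, 422 to 1285 and 310 to 902. The lowest totals came without an allograft (732 without allograft 2, 810 without allograft 4). Other scaling, no filter, all 48 tumours without the covariate and the muscle covariate stayed within 1.5 times.

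With anti-PD-1 alone DESeq2 called 2756 genes, and leaving out 1 tumour gave 634 to 1921. After 20 Gy with isotype these were 1875, and 260 to 1150. After 20 Gy with anti-PD-1 DESeq2 called 1005, and leaving out 1 tumour gave 0 to 239, the highest without primary tumour 4. Leaving out primary tumour 4 and allograft 2 of that arm together, also chosen after seeing the data, gave 84. For the change with treatment DESeq2 gave 17 genes against 0. The causes of these shifts were not tested. No paired analysis was possible because replicate numbers follow accession order. With 4 allografts, genes that vary among primary tumours and genes below 1 CPM are where the fit has least precision.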
